A study of Homo sapiens with 4 samples.

Results

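The genes described here are 38 genes of cell adhesion to the extracellular matrix, taken by symbol from a table of 64962 genes. They comprise 10 integrin subunits, 3 other surface and membrane genes, 6 laminin chains, 7 other matrix genes and 12 adapters, kinases and actin linkers. RNA was sequenced from HT-29, a human colorectal cancer line, and from NCM460, a human colon epithelial line used as the normal counterpart, each as a library labelled control and after 24 h with 100 μg/mL sturgeon chondroitin sulfate (SCS), a sulfated polysaccharide of cartilage. There were 4 libraries, 1 per group, so every difference below is between single libraries of a cell line, has no replicate check and carries no p-value.

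Cells hold on to the matrix through integrins, receptors made of an α and a β chain that pair in fixed combinations. Laminins are trimers of an α, a β and a γ chain and form, with type IV collagen, nidogen and perlecan, the basement membrane under an epithelium. On the inner side talin, kindlin, paxillin, focal adhesion kinase, vinculin and α-actinin link integrins to actin in focal adhesions, while α6β4 integrin and collagen XVII join laminin-332 to keratin filaments in hemidesmosomes.

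The deposited values were converted back to fragments. Summed over all rows, they came to 7605532 and 4241669 in HT-29 control and SCS and 9370765 and 6395555 in NCM460 control and SCS. Consecutive genes with identical values in every column were then merged and counted once. Totals after this merge were between 1156568 and 1654764 fragments per library. The mitochondrial shares and the scaling by total counts below rest on these merged totals. The mitochondrial genome took 35.8% and 13.8% of the fragments in HT-29 control and SCS, and 62.3% and 46.3% in NCM460 control and SCS, which left 507692 to 1383424 nuclear fragments. Levels are given as fragments and as CPM, a gene's fragments relative to the library total, after scaling by the trimmed mean of M-values (TMM), a scaling that assumes most genes do not differ. Of the colon epithelium markers, EPCAM, CDH1, KRT8, KRT18 and KRT19 were present in all libraries. KRT20, VIL1 and LGALS4 were at 0 fragments in both NCM460 libraries, while CDX2 was at 0 in both HT-29 libraries and had 14 and 12 fragments in NCM460, and CDX1 was at 0 in all. The 8 fibroblast and mesenchymal markers summed to between 2.93 and 27.0 CPM and the 4 blood cell markers were at 0.

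Of the 38 genes, 37 had fragments and 30 had them in all 4 libraries. NID1, the gene of nidogen-1, was listed at 0 throughout. COL4A1, a type IV collagen chain, had at most 2 fragments in any library. The 38 genes together took 0.813% of nuclear fragments in HT-29 control and 0.622% with SCS, and 0.832% in NCM460 control and 0.661% with SCS. The adapters, kinases and actin linkers were the largest role group in each library, with 2113 and 1526 CPM in HT-29 and 3454 and 2330 CPM in NCM460. In HT-29 with SCS the integrins were close behind at 1375 CPM. FLNA, filamin A, which crosslinks actin and binds β integrin tails, had 1256 and 840 fragments in HT-29 and 1156 and 990 in NCM460. These were the most fragments of the 38 genes except in HT-29 with SCS, where ITGB1 had 1054. Fragments also depend on transcript length. In deposited FPKM, which is per transcript length, FLNA had 63.7 and 30.7 in HT-29 and 192 and 98.1 in NCM460. ACTN4 had 173 and 63.9 in HT-29 and 183 and 140 in NCM460, so FLNA was above ACTN4 only in NCM460 control.

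**Figure D1:**
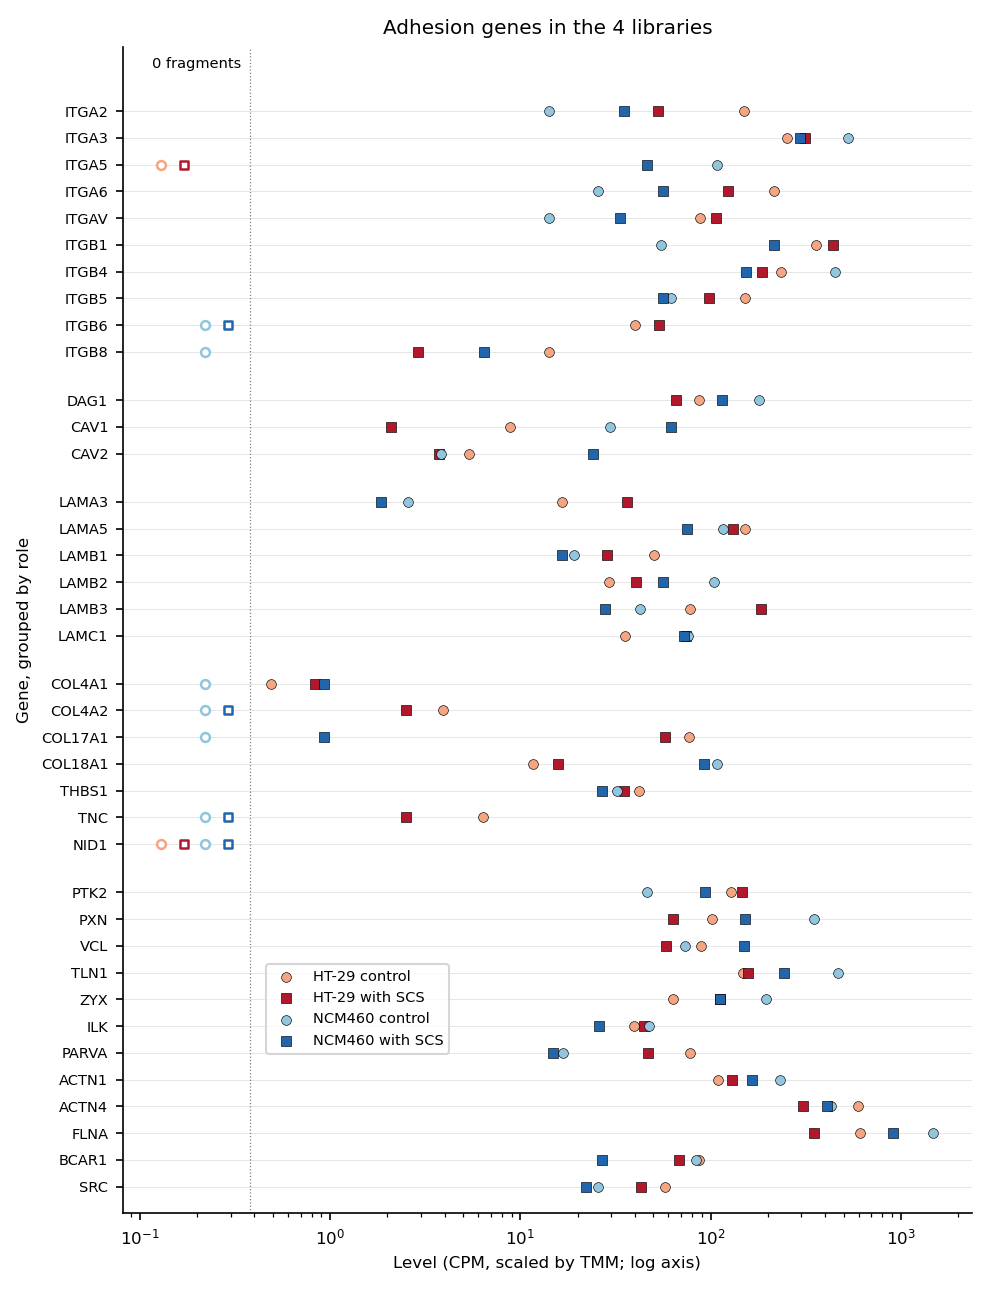
Levels of the 38 adhesion genes, grouped by role, in the 4 libraries, as TMM-scaled CPM on a log axis with open symbols at the left for 0 fragments. ITGA5 was at 0 in both HT-29 libraries, ITGB6 was at 0 in both NCM460 libraries, and NID1 was at 0 in all 4.

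Several members were seen almost entirely in 1 of the lines. ITGA5, the α chain of the fibronectin receptor α5β1, had 0 and 0 fragments in HT-29 control and SCS and 84 and 50 in NCM460. ITGB6, which pairs with αv to bind fibronectin and activate TGF-β, had 82 and 129 fragments in HT-29 and 0 and 0 in NCM460. COL17A1, the transmembrane collagen of hemidesmosomes, had 158 and 138 in HT-29 and 0 and 1 in NCM460. TNC and COL4A2 were seen in HT-29 alone, at 13 and 6 and at 8 and 6 fragments, so low that with SCS no difference from NCM460 was detectable at this depth.

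The promoters of ITGA5, ITGB6 and COL17A1 are shown because they differ in base composition. Composition was taken over the 250 bases before a RefSeq start in GRCh38.p14, and of these only the bases before the first overlapping GENCODE 29 exon are printed, on the coding strand, 5′ to 3′, with any TATAAA in capitals.
ITGA5 (chr12:54419461-54419516, minus strand): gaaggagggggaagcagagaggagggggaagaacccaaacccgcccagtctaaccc
ITGB6 (chr2:160200314-160200522, minus strand): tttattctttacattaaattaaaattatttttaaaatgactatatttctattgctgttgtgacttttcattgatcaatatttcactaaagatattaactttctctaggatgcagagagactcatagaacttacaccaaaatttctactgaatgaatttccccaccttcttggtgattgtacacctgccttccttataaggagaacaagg
COL17A1 (chr10:104085958-104086130, minus strand): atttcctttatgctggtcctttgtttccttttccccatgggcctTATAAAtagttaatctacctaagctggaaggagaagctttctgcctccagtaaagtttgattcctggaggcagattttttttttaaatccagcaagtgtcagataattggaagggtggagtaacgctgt
In the coordinates of the table the ITGB6 window lies within the gene and the other 2 overlap its edge, so the fragments of a gene cannot be assigned to these starts. The ITGA5 window had 70% GC and 12 CpG dinucleotides. The ITGB6 window had 30% GC and 0 CpG, and the COL17A1 window 40.4% GC and 1 CpG. Over all 35116 promoter entries the median was 58% GC and 11 CpG, and 14.7% of entries had at most 1 CpG. TATAAA on either strand was found in the COL17A1 window and in 10.7% of all entries. RefSeq promoters were matched for 33 of the 38 genes, and SRC, ITGA3, PTK2, ITGB4 and PARVA had no entry.

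Levels between genes were compared on the deposited FPKM values, which are per transcript length. ITGA3, whose product pairs with β1 and binds laminin-332, was the highest α chain in every library, at 47.5 and 65.8 FPKM in HT-29 control and SCS and at 123 and 53.4 in NCM460. ITGA6, the α chain of the hemidesmosome integrin, followed in HT-29 with 36.7 and 19.0 FPKM. Among β chains, ITGB1, the common partner of most α chains, was highest in HT-29 control, HT-29 SCS and NCM460 SCS, with 49.2%, 56.2% and 56.3% of the summed β chain FPKM. In NCM460 control it had 25.6%, and ITGB4, the hemidesmosomal β chain, had 58.4%. LAMA5 was the higher of the 2 laminin α chains in all libraries, with 76.1% to 98.1% of their summed FPKM.

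**Figure D2:**
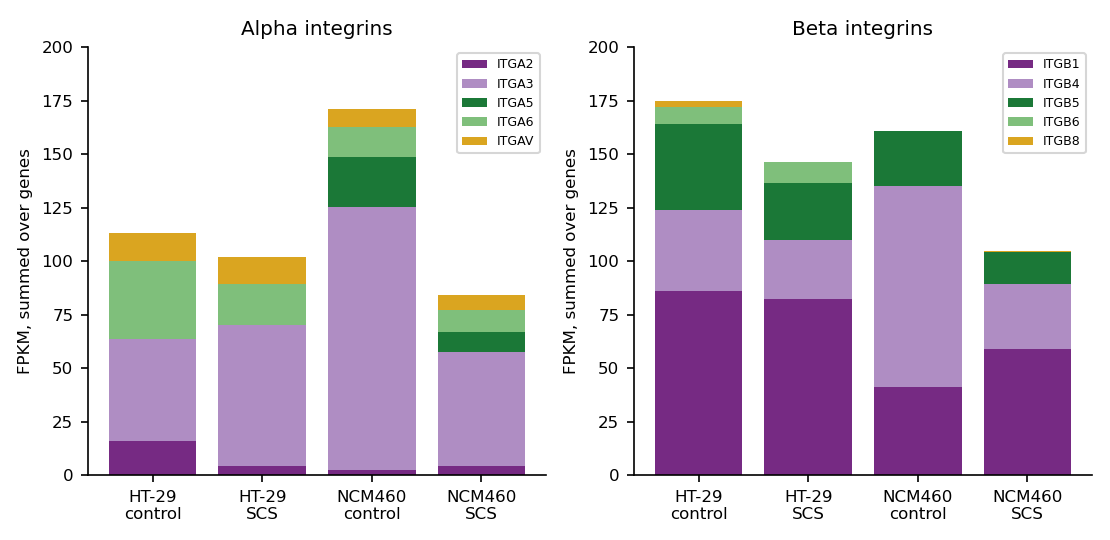
Deposited FPKM of the 5 α and 5 β integrin chains, stacked by gene for each library. In NCM460, ITGB4 made up 58.4% of the β chains without SCS and 28.7% after it.

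The first comparison asked how SCS changed these genes in the cancer line. The 3 laminin chains LAMA3, LAMB3 and LAMC1 and the focal adhesion protein gene ZYX were higher with SCS, by 1.76-fold to 2.33-fold. Lower with SCS were 11 genes, among them the integrin chains ITGA2, ITGA6, ITGB5 and ITGB8, CAV1, LAMB1 and the actin linkers ACTN4 and FLNA. A gene is called here when it differs by more than 1.5-fold and the exact 95% interval of its share of the 2 libraries' fragments, which covers counting error only, excludes no change. In bulk RNA, fewer cells with a transcript and less of it per cell cannot be told apart. Of 35 genes averaging 1 CPM or more, 15 were called, against 31.5% of all 12168 loci (16.8% higher and 14.8% lower). The median log2 fold change was -0.34 over the 35 genes and 0.07 over all loci. Scaling by total counts, which moves the median of all loci to 0.32, gave 6 genes higher and 4 lower, and ITGA6, ITGB5, LAMB1, PXN, VCL, PARVA and FLNA were then not called.

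Among the receptors, ITGA2, the collagen-binding α2 chain, stood at 305 fragments without SCS and 127 after it, from 149 to 52.9 CPM. Its log2 fold change was -1.47 (95% interval -1.81 to -1.19). ITGA6 went from 441 to 297 fragments (-0.80, -1.02 to -0.59), and ITGB5, a vitronectin receptor chain with αv, from 312 to 235 (-0.63, -0.89 to -0.39). ITGB8 was the lowest integrin present and had 29 and 7 fragments (-1.88, -3.72 to -1.06). The remaining integrins were not called, and their fragments were 515 and 750 for ITGA3, 180 and 258 for ITGAV, 730 and 1054 for ITGB1, 478 and 447 for ITGB4 and 82 and 129 for ITGB6. No integrin was called higher, and 4 of 9 were called lower, against 16.8% and 14.8% of all loci.

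CAV1 encodes caveolin-1, the scaffold of caveolae, and was lower with SCS at 18 and 5 fragments (-1.59, -3.86 to -0.60). Its partner CAV2 had 11 and 9 fragments and an interval that held no change (-1.97 to 0.89). DAG1, dystroglycan, a laminin receptor outside the integrin family, had 177 and 158 fragments and was not called. CAV1 and LAMB1 are among the genes the study itself picked out from these libraries, so their direction is not independent evidence.

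Laminin chains moved in both directions. LAMB3, a chain found in laminin-332, stood at 160 fragments without SCS and 442 after it, from 78.2 to 184 CPM (1.22, 0.97 to 1.5). LAMA3, the α chain of the same trimer, had 34 and 87 fragments (1.07, 0.54 to 1.74). In the GRCh38 coordinates of the table LAMB3 lies at chr1:209614870-209652466 and LAMA3 at chr18:23689443-23955066. LAMC1, the γ chain of most other laminins, had 73 and 178 fragments (1.03, 0.65 to 1.47). LAMB1 was lower, at 103 and 69 fragments (-0.78, -1.27 to -0.36). LAMB2 with 60 and 98 and LAMA5 with 309 and 314 fragments were not called. Of the summed FPKM of the 3 β chains, LAMB3 took 55.8% in the control and 67.5% with SCS, and LAMB1 took 23.4% and 5.68%.

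The letters TGAGTCA, or their reverse complement TGACTCA, known as binding letters of AP-1, were searched in the same 250-base windows. Of the 33 genes with an entry, 3 had a match in at least 1 window (9.09%), against 5.19% of all genes. The 33 genes had 54 entries and all 27305 genes had 35116, so more windows per gene were searched in the 33. By entry, 3 of the 54 had a match, against 4.20% of all entries. The 3 genes were LAMA3, LAMB3 and BCAR1. BCAR1 was not called in HT-29, while LAMC1 and ZYX, both called higher, had no match. The window of LAMB3, a gene with 3 listed starts, is shown for its match, in capitals, again without the bases of an exon.
LAMB3 (chr1:209651395-209651624, minus strand): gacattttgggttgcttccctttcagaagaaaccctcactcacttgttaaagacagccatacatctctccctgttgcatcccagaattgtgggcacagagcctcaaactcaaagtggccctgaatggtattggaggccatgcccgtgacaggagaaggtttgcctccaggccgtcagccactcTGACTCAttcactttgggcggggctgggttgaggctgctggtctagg
The LAMA3 and LAMB3 windows lie within the spans of these genes in the table, so a difference of the whole gene cannot be assigned to these starts. A match of letters does not show binding, and none was measured here.

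The other matrix genes were not called in HT-29. COL17A1 had 158 and 138 fragments, THBS1, the gene of thrombospondin-1, had 86 and 84, and COL18A1, a basement membrane collagen that is the source of endostatin, had 24 and 38. TNC, tenascin-C, with 13 and 6 and COL4A2 with 8 and 6 fragments had intervals from below -2 to above 0 on the log2 scale.

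Among the adapters and actin linkers 1 gene was called higher and 5 lower of 12, against 16.8% and 14.8% of all loci. ZYX, zyxin, which gathers at tensed actin fibres in adhesions, had 130 and 271 fragments (0.82, 0.52 to 1.14). ACTN4, α-actinin-4, had 1221 and 735 fragments, from 597 to 306 CPM (-0.96, -1.10 to -0.83), and FLNA had 1256 and 840 (-0.81, -0.94 to -0.68). The precision was highest for these abundant genes. PARVA, α-parvin, a partner of integrin-linked kinase, had 160 and 113 fragments (-0.72), PXN, paxillin, had 208 and 153 (-0.66), and VCL, vinculin, had 182 and 141 (-0.59). The last of these lay just past the 1.5-fold limit, at 1.51-fold lower. The kinases and the remaining adapters were not called: PTK2, focal adhesion kinase, had 262 and 351 fragments, SRC 118 and 103, ILK 81 and 107, TLN1 304 and 377, ACTN1 224 and 312 and BCAR1 177 and 164.

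Among 91 further genes of the same pathways, 59 reached 1 CPM, and 9 were called higher and 14 lower (39.0%, against 31.5% of all loci). The largest fall was TNS4, a tensin that binds integrin tails, from 599 to 56 fragments (-3.58, -4.07 to -3.25). Of the 31 further adapters, kinases and actin linkers tested, 6 were higher and 9 lower (48.4%). Of 9 actomyosin genes 3 were lower and 0 higher (33.3%), near the share called over all loci. The colon epithelium marker list moved in the same libraries, from a sum of 6525 CPM to 3535 CPM, with KRT8, KRT18, KRT19 and VIL1 lower and EPCAM, CDH1, KRT20 and LGALS4 higher in CPM, and the mitochondrial share fell from 35.8% to 13.8%. The part of either in the adhesion gene values was not tested.

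**Figure D3:**
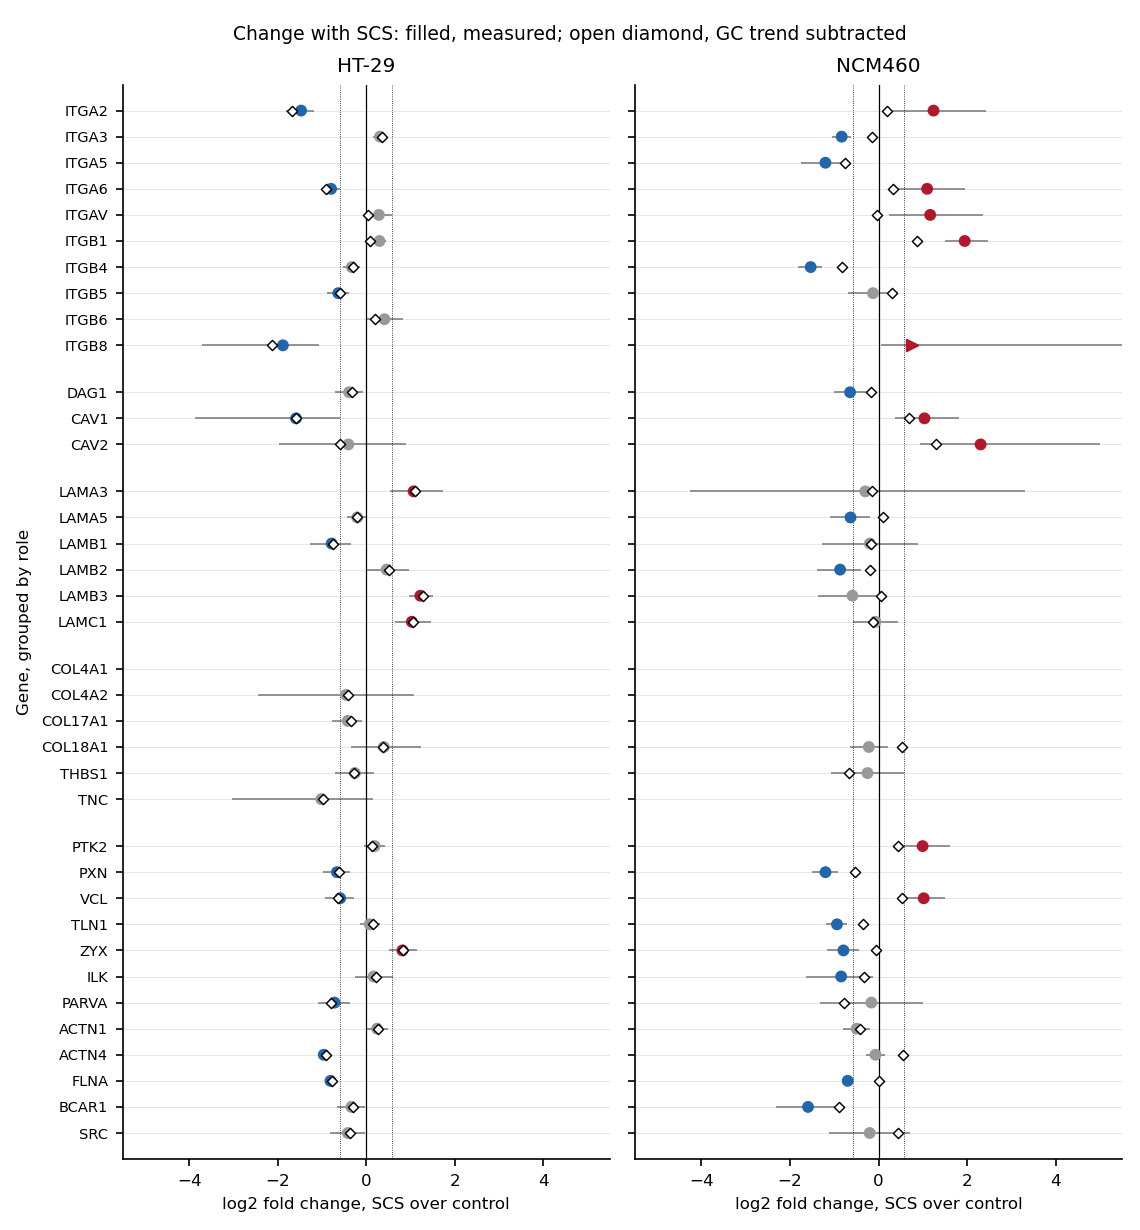
Log2 fold change of each gene with SCS over control in HT-29 and NCM460, with filled points for measured values (red called higher, blue called lower, grey not called), bars for 95% counting intervals and open diamonds for values after subtraction of the GC trend. In HT-29 the diamonds lie near the points, and in NCM460 most lie closer to 0. The triangle is a lower bound for ITGB8, which had 0 fragments in NCM460 control.

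The second comparison asked the same in NCM460. ITGB1, ITGA2, ITGA6, ITGAV, CAV1, CAV2, PTK2, VCL and ITGB8 were higher with SCS, and 12 genes, among them ITGA3, ITGA5, ITGB4, BCAR1, PXN and FLNA, were lower. Of 32 genes tested 21 were called, against 29.2% of all 12657 loci, with a median of -0.23 over the members and 0.03 over all loci. These changes followed the GC content of the transcripts. Over 9052 loci averaging 5 CPM or more, Spearman's rho of log2 fold change with GC content was -0.72, a description across genes that share 2 libraries, and over the 32 members it was -0.80. The source of this relation was not tested. All 15 members with a transcript GC content over 55% had log2 fold changes below 0, and 7 of the 8 under 45% were above 0. In HT-29 rho was -0.16 over all loci.

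With the GC trend of all loci subtracted, 5 of the 32 members stayed past the call limits in NCM460, 2 higher and 3 lower, against 11.9% of all loci (5.70% higher and 6.23% lower). ITGB1 had 43 control and 234 SCS fragments (1.95, 1.5 to 2.48) and a value of 0.87 (0.42 to 1.40) beyond the trend. CAV1 had 23 and 67 fragments (1.04, 0.37 to 1.82) and 0.68 (0.01 to 1.47) beyond it. In deposited FPKM neither passed 1.5-fold, with 41.2 and 59.0 for ITGB1 and 18.6 and 24.9 for CAV1. ITGB4 had 350 and 167 fragments (-1.53, -1.82 to -1.27) and -0.82 (-1.10 to -0.56) beyond it. ITGB4 and ITGB1 were thus displaced in opposite directions, and their order by FPKM changed from ITGB4 above ITGB1 in the control to ITGB1 above ITGB4 with SCS. ITGA5 had 84 and 50 fragments (-1.20, and -0.75 beyond the trend). BCAR1, the gene of the adapter p130Cas, had 65 and 29 fragments (-1.59, and -0.88 beyond the trend). Scaling by total counts, which moves the median of all loci to 0.57, gave 11 members higher and 2 lower, ITGB4 and BCAR1.

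The remaining calls in NCM460 did not hold after subtraction of the trend. ITGA2 had 11 and 38 fragments (1.24, and 0.18 beyond the trend), ITGAV 11 and 36 (1.17 and -0.03) and ITGA6 20 and 61 (1.10 and 0.32). PTK2 with 36 and 101 fragments (1.00 and 0.44) and VCL with 57 and 162 (1.02 and 0.52) were likewise not called beyond it. In deposited FPKM the values of ITGAV (-0.36) and ITGA6 (-0.42) were below 0. CAV2 had 3 and 26 fragments, with a wide interval (0.94 to 5.01), and ITGB8 had 0 and 7, at least 1.68-fold higher when the control is set at 3 fragments. On the lower side, ITGA3 had 410 and 319 fragments (-0.83 and -0.14), PXN 274 and 165 (-1.20 and -0.53), TLN1 364 and 263 (-0.94 and -0.35), FLNA 1156 and 990 (-0.70 and 0.00), ZYX 153 and 122 (-0.79 and -0.06) and ILK 37 and 28 (-0.84 and -0.32). DAG1 had 140 and 124 fragments (-0.64 and -0.16). The laminin chains LAMA5 and LAMB2, also called lower only before the subtraction, are given below.

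No laminin was called after subtraction of the trend in NCM460. LAMA5 had 91 and 81 fragments (-0.63 and 0.10), LAMB2 81 and 61 (-0.87 and -0.20), LAMB3 33 and 30 (-0.59 and 0.05) and LAMC1 59 and 78 (-0.07 and -0.13). LAMB1 had 15 and 18 and LAMA3 2 and 2 fragments. LAMA3 was too low to compare, and the interval of LAMB3 (-1.37 to 0.15) held no change. COL18A1 had 84 and 100, THBS1 25 and 29, ACTN4 334 and 442, ACTN1 181 and 178, PARVA 13 and 16 and SRC 20 and 24 fragments, and none of these was called. Of the further pathway genes, 12 were higher and 17 lower of 69 tested (42.0%, against 29.2% of all loci). With the trend subtracted 4 were higher and 4 lower (11.6%), near the 11.9% of all loci. The largest rise was FERMT2, kindlin-2, from 5 to 39 fragments (2.28, and 0.99 beyond the trend), and the largest fall EHD2, which caps caveolae, from 121 to 54 (-1.61 and -0.92). The mitochondrial share moved in the same direction as in HT-29, from 62.3% to 46.3%, the colon epithelium markers summed to 4346 and 2659 CPM, and their part in these values was not tested.

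**Figure D4:**
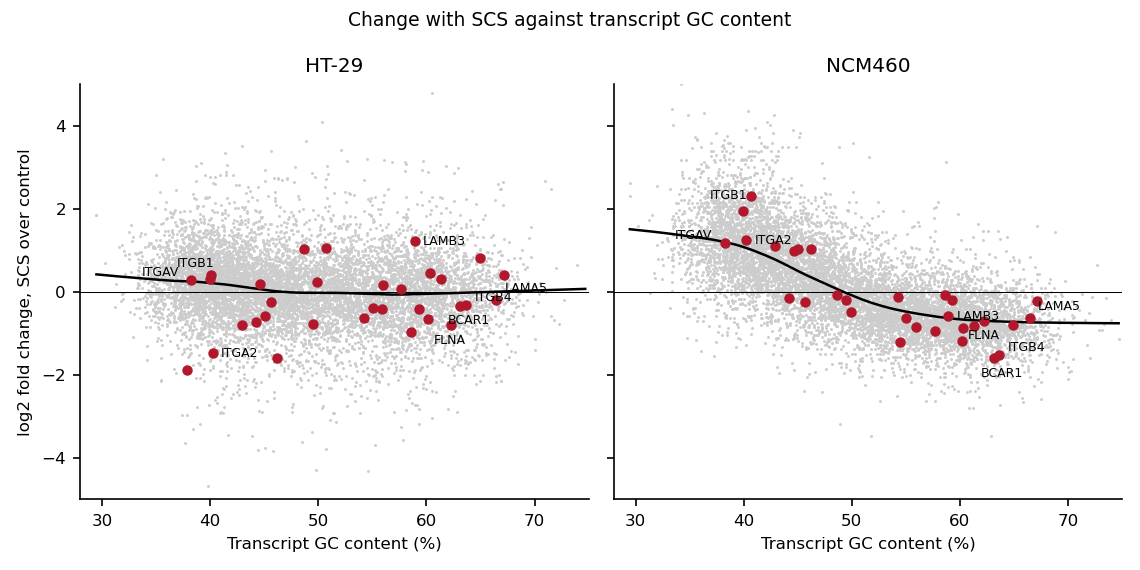
Log2 fold change with SCS over control against the GC content of the longest transcript for loci averaging 5 CPM or more (grey), with the smoothed trend (line) and the adhesion genes among them (red), in HT-29 and NCM460. In NCM460 both the loci and the adhesion genes descend from GC-poor to GC-rich transcripts, with rho of -0.72 over the loci and -0.80 over the 32 adhesion genes tested.

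Between the 2 SCS comparisons, which share no library, 31 members were tested in both. Of the 15 called in HT-29 and the 20 called in NCM460 among these, 0 were higher in both and 2, PXN and FLNA, were lower in both, which is 13.3% and 10.0% of the lists. Over all loci 23.5% and 23.4% of the lists were called in the same direction. In opposite directions were 6 members, ITGA2, ITGA6, ITGB8, CAV1 and VCL, lower in HT-29 and higher in NCM460, and ZYX, the reverse. Over all loci 416 were opposite, of 3505 called in HT-29 and 3513 in NCM460. After subtraction of the GC trend CAV1 alone was called in opposite directions, against 231 of 10463 loci. Then 0 members were lower in both and 0 higher in both, against 9.27% and 21.96% of the lists in the same direction over all loci.

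The third comparison set the control libraries of the lines side by side. HT-29 had more of most integrin chains, while the adapters, kinases and actin linkers differed in both directions. Of 36 members tested, 15 were higher and 13 lower in HT-29, against 48.4% of 12691 loci called. These differences also followed GC content, with rho of -0.58 over all loci, and with that trend subtracted 19 members were higher and 8 lower, against 37.8%. Scaling by total counts, which moves the median of all loci to 1.04, gave 22 higher and 4 lower.

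ITGA2 had 305 fragments in HT-29 and 11 in NCM460 (3.29, and 2.07 beyond the trend). ITGA6 had 441 and 20 (3.01 and 2.12), ITGB1 730 and 43 (2.66 and 1.43) and ITGAV 180 and 11 (2.54 and 1.17). ITGB5 had 312 and 48 (1.29 and 1.72). These 5 chains were all higher in HT-29 with and without the trend. In deposited FPKM, with 0.5 added to each value, ITGAV was not called (13.3 and 8.81). ITGB1 was still called there, at 86.0 and 41.2 FPKM. ITGB6 was at least 10.4-fold higher and ITGB8 at least 3.68-fold higher in HT-29, and ITGA5 at least 73.6-fold lower, each set against a floor of 3 fragments. ITGA3, with 515 and 410 fragments, and ITGB4, with 478 and 350, were called lower in HT-29 (-1.06 and -0.94), but not beyond the trend (-0.17 and 0.09). Scaled by total counts both were above 0 (0.033 and 0.15).

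In the matrix, COL17A1 was at least 20.1-fold higher in HT-29. LAMA3 had 34 fragments in HT-29 and 2 in NCM460 (2.22, 0.73 to 5.80), LAMB1 103 and 15 (1.33) and LAMB3 160 and 33 (0.86). In deposited FPKM LAMB1 was not called, at 9.63 and 6.32. LAMB2 was lower in HT-29, at 60 and 81 fragments (-1.78, and -0.95 beyond the trend), as was LAMC1 at 73 and 59 (-1.06 and -1.10), though not by total counts (0.011). COL18A1 was lower too, at 24 and 84 fragments (-3.07 and -1.85). By FPKM the leading laminin β chain was LAMB3 in HT-29 control, with 55.8% of the sum, and LAMB2 in NCM460 control, with 65.9%.

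Among the intracellular genes PARVA (160 and 13 fragments, 2.15), PTK2 (262 and 36, 1.45) and SRC (118 and 20, 1.13) were higher in HT-29. PXN (208 and 274, -1.78), TLN1 (304 and 364, -1.64) and ACTN1 (224 and 181, -1.08) were lower on both scales. By total counts TLN1 (-0.55) and ACTN1 (0.011) were not called. ZYX (-1.61), FLNA (-1.27) and DAG1 (-1.04) were lower before subtraction of the trend and not called after it. ACTN4 (1.19) and BCAR1 (1.05) were called higher in HT-29 only after it. Of the 12 adapters, kinases and actin linkers, 3 were higher and 5 lower (66.7%, against 48.4% of all loci). With the trend subtracted 5 were higher and 3 lower, against 37.8% of all loci. CAV1 was lower in HT-29, at 18 and 23 fragments (-1.61 and -2.0), and not called by total counts (-0.59). Of the further pathway genes 17 were higher and 25 lower of 71 tested (59.2%, against 48.4% of all loci). ROCK2, a kinase that drives actomyosin contraction, had 294 fragments in HT-29 and 3 in NCM460, and FLNC, filamin C, had 0 and 131.

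With SCS, the difference between the lines was 15 members higher and 9 lower in HT-29 of 36 tested, against 46.6% of 13050 loci. Scaling by total counts, which moves the median of all loci to 0.64, gave 21 and 6. With the GC trend subtracted 15 were higher and 8 lower, against 46.3%. This comparison followed GC content less, with rho of -0.18 over all loci. LAMB3 with 442 fragments in HT-29 and 30 in NCM460 (2.67, 2.19 to 3.31) and LAMA3 with 87 and 2 (3.59, 2.39 to 7.36) were higher. CAV1 had 5 and 67 fragments (-4.24, -6.56 to -3.60), CAV2 9 and 26 (-2.34) and VCL 141 and 162 (-1.33), all lower in HT-29. ITGB1 had 1054 and 234 fragments (1.02), ITGA6 297 and 61 (1.11) and ITGAV 258 and 36 (1.65), and ITGA2 with 127 and 38 was not called (0.57). ITGB6 was at least 19.4-fold higher, ITGA5 at least 37.0-fold lower, and COL17A1 had 138 and 1 fragments (4.74, 3.45 to 11.35). ITGB5 (0.78), LAMA5 (0.79), LAMB1 (0.74), ILK (0.75), PARVA (1.59), BCAR1 (1.31), SRC (0.91) and PTK2 (0.64) were also higher, and PXN (-1.24), FLNA (-1.39), TLN1 (-0.63), DAG1 (-0.79) and COL18A1 (-2.46) lower. TLN1 was not called by total counts (0.046) or beyond the GC trend (-0.49), and PTK2 was not called beyond that trend (0.56). PXN (-0.58) and DAG1 (-0.12) were not called by total counts. In deposited FPKM the values of LAMA5 (-0.54), LAMB1 (-0.96) and PTK2 (-0.012) were below 0, and ITGB1, ILK and DAG1 were not called.

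The 2 line comparisons share no library, and 36 members were tested in both. HT-29 was called higher for 12 and lower for 7 in both, and 0 were called in opposite directions, against 276 loci of 5978 called without SCS and 5910 with it. This same-direction set was 67.9% of the 28 calls without SCS and 79.2% of the 24 with it, and over all loci the shares were 58.8% and 59.4%. Among the further pathway genes 14 were higher and 22 lower of 70 with SCS (51.4%, against 46.6% of all loci). ROCK2 again differed most upward, at 299 and 17 fragments, while FERMT2 had 0 and 39.

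**Figure D5:**
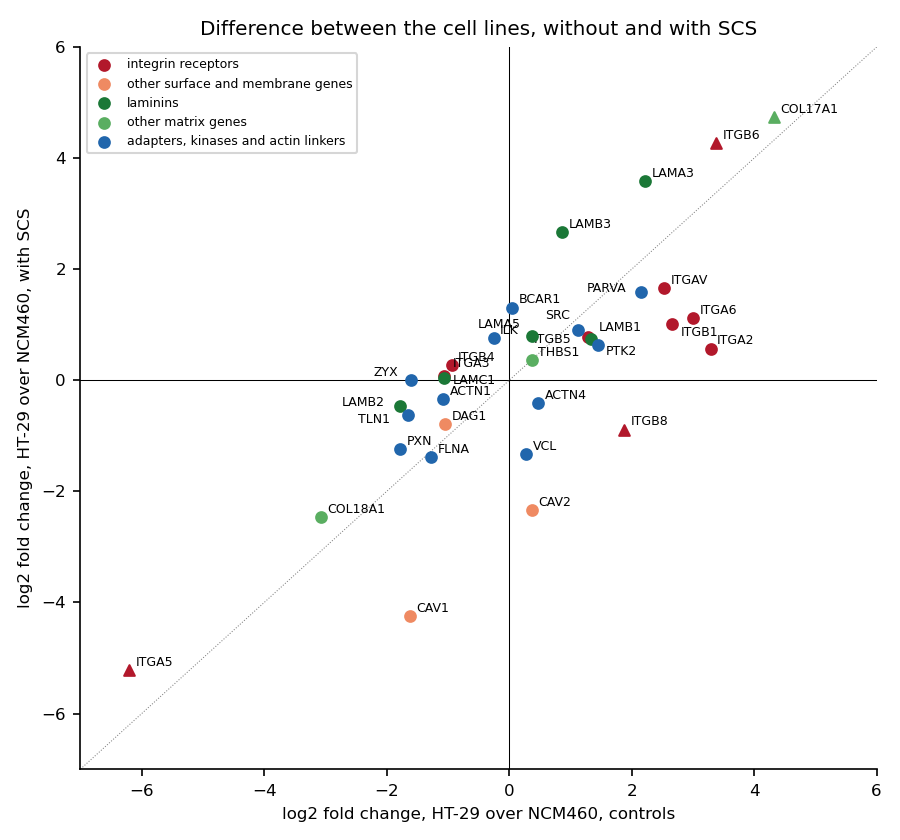
Log2 fold change of HT-29 over NCM460 in the controls (horizontal) and with SCS (vertical) for the adhesion genes, coloured by role. Triangles mark genes with 0 fragments in a library, placed at their lower bound where that library is compared, and the dotted line marks equal values. COL4A2 and TNC, with no bound past 1.5-fold with SCS, are not drawn. ITGA5 lies at the lower left, and COL17A1, ITGB6 and LAMA3 at the upper right.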

How the data were processed

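RNA was sequenced from 4 libraries. The authors' processing notes name bcl2fastq 2.17.1.14, cutadapt 1.9.1, Bowtie2 and HTSeq 0.6.1, with hg19 as the build. The gene coordinates in the deposited table are those of GRCh38, since 96.1% of loci were found in GENCODE 29 and 93.5% of these had the same start and end.

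The deposited signal columns, named as raw counts, held fragment counts divided by a library factor. Division by the value of 1 fragment gave whole numbers (within 0.1) for 99.9% or more of values in each library. The deposited FPKM values were used as given by the authors for levels between genes. Consecutive genes with identical values in every column were merged into 18650 loci, as for LAMB3, COL17A1, ACTN1, BCAR1, LAMA5 and TLN1, whose values include a small overlapping gene. Library totals and mitochondrial shares were taken after this merge, which lowered the totals of every library. Rows with no gene name (up to 0.0352% of the fragments in all rows) were left out.

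Log2 fold changes were computed from TMM-scaled CPM (edgeR 4.0.16) with a prior count of 2, for loci averaging 1 CPM or more. No count model was fitted between groups of 1 library. Intervals were exact Clopper-Pearson and cover counting error only, and 3 fragments stood in for 0 in lower bounds. The GC trend was a lowess fit (span 0.3) on the GC content of the longest GENCODE 29 transcript, over all loci tested. Of the further pathway genes, those named had the largest called rise and fall in each comparison with a mean of at least 10 CPM, except for a gene that is not reported here. The members and lists were chosen with earlier results of these data known.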

Additional observations from a re-analysis of the deposited data

Results flagged for a closer look

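For 6 genes the value with SCS over control was called in opposite directions in the 2 cell lines, of 31 tested in both, against 416 of 10849 loci. The difference between the lines was not tested, since each group had 1 library. The log2 fold change in HT-29 minus that in NCM460 was -2.72 for ITGA2, -1.89 for ITGA6, -2.63 for CAV1, -1.61 for VCL and 1.61 for ZYX. For ITGB8 it was -4.49, a value that depends on the prior count because NCM460 control had 0 fragments. With the GC trend of each comparison subtracted, these differences were -1.87 for ITGA2, -1.24 for ITGA6, -3.52 for ITGB8, -2.28 for CAV1, -1.16 for VCL and 0.89 for ZYX. CAV1 alone was then still called in opposite directions, against 231 of 10463 loci.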

How the results depend on the processing

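No paired analysis was possible because each group had 1 library, and no library could be left out. Each value was recomputed under 10 alternatives (DESeq2 size factors, total counts, nuclear counts, a prior count of 0.5, subtraction of a GC or an expression trend, no filter, a mean of at least 5 CPM, thinning to the smallest nuclear total and deposited FPKM). Of the calls, 8 of 15 in HT-29 (ITGA2, ITGB8, CAV1, LAMA3, LAMB3, LAMC1, ZYX and ACTN4) and 2 of 21 in NCM460 (ITGB4 and BCAR1) held under all 10 alternatives. So did 16 of 28 between the lines without SCS and 14 of 24 with it. The alternative with no filter could not remove a call, since it only adds loci to those tested. A call counted as not held where an alternative left the gene untested. For TNC between the lines without SCS, the filter at 5 CPM was the only such loss. At this depth LAMA3, ITGB6, ITGB8, CAV2, COL17A1, COL4A1, COL4A2 and TNC had 3 or fewer fragments in a NCM460 library, as did NID1. Values set against such a library have wide intervals, with no upper limit where it had 0 fragments.

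With total counts, members called lower numbered 4 in HT-29, 2 in NCM460 and 4 between lines without SCS, and the member median was 0.42 in NCM460 and 1.13 between lines with SCS. Here and below, turned means a change of sign for a member called with TMM scaling, and members not called are left out. This scaling turned LAMA5 (0.052) and DAG1 (0.045) in NCM460, LAMC1 (0.011), ACTN1 (0.011), ITGA3 (0.033), ITGB4 (0.15) and DAG1 (0.042) between lines without SCS, and TLN1 (0.046) with SCS. With nuclear counts the NCM460 median was -0.057. With the GC trend subtracted NCM460 had 2 members higher and 3 lower with a median of -0.049, and ITGAV (-0.033), LAMA5 (0.10) and FLNA (0.0036) turned. Between lines without SCS it left 8 lower and turned ITGB4 (0.091). Over all loci it took the calls in NCM460 from 3690 to 1457. With the expression trend subtracted NCM460 had 6 members lower. With FPKM it had 5 higher, and ITGA6 (-0.42), ITGAV (-0.36) and LAMA5 (0.22) turned, as did LAMA5 (-0.54), LAMB1 (-0.96) and PTK2 (-0.012) between lines with SCS. The causes were not tested.

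The share of higher calls over all loci was 53.1%, 52.7%, 52.3% and 51.9% in the order of the comparisons (HT-29, NCM460, lines without SCS, lines with SCS). It was 73.8%, 94.1%, 85.1% and 76.5% with total counts, 39.5%, 65.8%, 65.1% and 51.9% with nuclear counts, and 41.6%, 37.95%, 37.2% and 38.3% with FPKM.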

Other observations

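Genes outside the 38 differed in HT-29 too, where 31.5% of all loci were called. PTRF, which encodes the caveola coat protein cavin-1, had 280 control and 109 SCS fragments in HT-29 (log2 fold change -1.57), in the same libraries in which CAV1 had 18 and 5. EHD2, the other caveola gene tested, had 92 and 108 fragments and was not called. FERMT1, the epithelial kindlin, had 176 and 59 fragments in HT-29 (-1.76), and DST, which encodes a hemidesmosome linker to keratin, had 109 and 357 (1.46). MYH9, the non-muscle myosin heavy chain, had 1103 and 540 fragments (-1.26), and ACTB, β-actin, had 3900 and 1845 (-1.31). In the same lists ACTG1 had 2282 and 2742 fragments and PLEC 1911 and 1937, and neither was called. Of the actomyosin genes 3 of 9 were called in HT-29, and of the hemidesmosome and tetraspanin genes 1 of 5. These genes were chosen after their values were seen, and each difference is between 2 libraries.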
